A study of Mus musculus with 51 samples.

Results

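The 35 genes described here encode the machinery that builds cholesterol and fatty acids, and they were chosen by symbol from the 24421 genes in the count tables. They fall into a sterol group of 24 genes and a fatty acid group of 11 genes, which were read apart. All 35 symbols were found. The libraries came from the prefrontal cortex of 17 adult male C57BL/6J mice, each of which gave 3 preparations (51 libraries): astrocytes, caught with ACSA2 beads after myelin removal on a 25% Percoll gradient; microglia, caught with CD11b beads; and total homogenate, the 5% of the suspended minced tissue set aside before dissociation. The 9 CIE mice (chronic intermittent ethanol) breathed ethanol vapor for 16 h a day in 4 weekly cycles and were given ethanol (1.6 g/kg) and pyrazole, an inhibitor of alcohol dehydrogenase, before entering the chambers. The 8 control mice breathed air for the same hours and were given saline and pyrazole at 1 mmol/kg, so that both groups carried the inhibitor. Mice numbered 03 to 08, 19 to 26 and 35 to 41 form 3 ranges of numbers, each with mice of both treatments, and nothing in the labels says what a range stands for.

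Cholesterol is made from acetyl-CoA through mevalonate, isoprenoid units and squalene, which is closed into a ring and trimmed to cholesterol. Fatty acids are made from the same acetyl-CoA by carboxylation, chain synthesis, elongation and desaturation. The transcription factors SREBP-2 and SREBP-1, encoded by Srebf2 and Srebf1, switch on both pathways. The escort protein SCAP carries them out of the endoplasmic reticulum when sterols are low, and INSIG proteins hold SCAP back when sterols are plentiful. The adult brain makes its own cholesterol, with astrocytes and oligodendrocytes as known producers, the latter for myelin.

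Total gene counts per library ran from 2082289 to 10041788 in astrocytes, from 571878 to 6026453 in microglia and from 5042926 to 15594154 in total homogenate. Values below are CPM (gene counts as a share of the library total) scaled by the TMM method, and a gene was called where the edgeR quasi-likelihood test gave a Benjamini-Hochberg adjusted p under 0.05 over all genes tested. The mice are the replicates. The bead preparations were checked against marker lists in control mice. Of 10 microglia markers, all 10 were higher in microglia than in total homogenate. Of 10 astrocyte markers, 9 were higher in astrocytes than in total homogenate and Gfap was lower (log2 difference −2.01). The astrocyte preparation was above total homogenate in all 12 oligodendrocyte markers too (median log2 difference 4.19), and their summed level was 17890 to 25336 CPM (median 21758) against 1064 to 3837 CPM (median 2292). In the microglia preparation 10 of these 12 were higher than in total homogenate. The summed median in control astrocytes was also above total homogenate for microglia markers (3652 against 827 CPM) and endothelial markers (1196.5 against 296 CPM). It was 946 against 343 CPM for oligodendrocyte precursor markers and 125 against 11410 CPM for neuron markers. In every result on the astrocyte preparation below, RNA of astrocytes, of oligodendrocytes and of these other cell types cannot be told apart. Scaled over all 51 libraries, the summed oligodendrocyte marker level in control microglia was 2307 to 8149 CPM (median 4778). In results on the microglia preparation, RNA of microglia and of oligodendrocytes cannot be told apart either. Nor can fewer cells of a type be told apart from less RNA per cell in such bulk libraries.

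The promoters of 4 genes are printed to show the sequence elements that many of the genes share upstream of their start. Each is read 5′ to 3′ on the gene's strand from the RefSeq table of GRCm38.p6, and bases that fall in an annotated exon were left off. Capitals mark the letters searched on both strands: CCAAT (the CCAAT box, ATTGG on the other strand, bound by NF-Y), GGGCGG (the GC box, CCGCCC on the other strand, bound by Sp1), CACGTG (an E-box) and TCACNCCAC (one form of the sterol element bound by SREBP). Insig1 (chr5:28071162-28071362, plus strand) is shown because it changed with CIE in 2 preparations. Hmgcs1 (chr13:119690101-119690350, plus strand) is shown as the one member whose window held the sterol element in this form. Ebp (chrX:8193513-8193762, minus strand) is shown as the one sterol enzyme called with CIE, and Fasn (chr11:120824548-120824797, minus strand) as the central fatty acid enzyme.
Insig1: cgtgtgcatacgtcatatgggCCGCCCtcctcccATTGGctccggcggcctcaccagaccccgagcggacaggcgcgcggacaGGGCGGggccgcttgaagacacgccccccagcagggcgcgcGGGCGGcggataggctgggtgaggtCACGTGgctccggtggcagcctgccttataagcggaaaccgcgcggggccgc
Hmgcs1: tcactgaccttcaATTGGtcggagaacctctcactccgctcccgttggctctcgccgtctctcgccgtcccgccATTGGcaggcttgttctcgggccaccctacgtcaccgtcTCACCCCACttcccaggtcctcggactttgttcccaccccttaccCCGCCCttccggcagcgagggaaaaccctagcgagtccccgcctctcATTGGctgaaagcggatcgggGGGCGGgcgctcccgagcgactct
Ebp: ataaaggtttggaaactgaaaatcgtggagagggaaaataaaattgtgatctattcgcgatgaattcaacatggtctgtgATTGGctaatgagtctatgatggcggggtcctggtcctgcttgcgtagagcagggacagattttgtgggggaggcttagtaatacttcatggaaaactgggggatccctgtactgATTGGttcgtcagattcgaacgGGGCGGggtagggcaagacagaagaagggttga
Fasn: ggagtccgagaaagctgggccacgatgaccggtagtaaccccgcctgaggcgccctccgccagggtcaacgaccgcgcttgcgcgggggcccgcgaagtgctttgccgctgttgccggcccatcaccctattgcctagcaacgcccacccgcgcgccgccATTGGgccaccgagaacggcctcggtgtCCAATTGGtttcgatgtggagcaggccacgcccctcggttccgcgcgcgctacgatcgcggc

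Of the 35 genes, 28 had an entry in the promoter table. In the 250 bases before the start, a CCAAT box was found in 18 of 20 sterol genes (90%) and in 4 of 8 fatty acid genes (50%), against 37.5% of all 27025 genes in the table. A GC box was found in 19 of 20 sterol genes (95%) and in 2 of 8 fatty acid genes (25%), against 35.4% of all genes. The E-box was found in 6 of the 28 genes (21.4%) against 6.86% of all genes. The sterol element in the letters searched was found in 1 of 28 (3.57%), Hmgcs1, against 1.22% of all genes. A gene with more than 1 listed start was counted where any of its windows held the letters. The 27025 genes had 32851 windows and were not matched to the members in windows per gene. These counts describe letters in a window, and other forms of the sterol element were not searched.

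In control mice transcripts of the sterol genes were mostly highest in the astrocyte libraries, intermediate in total homogenate and lowest in microglia. Total homogenate was set aside before the dissociation, gradient and bead steps. In each difference from total homogenate below, cell type and these steps therefore cannot be told apart. Of the 24 sterol genes, 21 were called higher in astrocytes than in total homogenate and 1 lower (median log2 difference 0.91), where 78.8% of all genes were called (41% higher, 37.8% lower) and the median of all genes was 0.05. All 17 enzymes from mevalonate to cholesterol were among those called higher. The steepest were in the last part of the pathway: Msmo1, which acts after Cyp51 to remove methyl groups of the ring, with a log2 difference of 2.12 (SE 0.12, adjusted p = 3.03e-15, edgeR), and Dhcr7, which reduces the last-but-one intermediate, with 1.95 (SE 0.13, adjusted p = 1.09e-13, edgeR). The 6 enzymes of mevalonate and isoprenoid synthesis (Hmgcs1, Mvk, Pmvk, Mvd, Idi1 and Fdps) had a median log2 difference of 0.68, from 0.43 for Pmvk to 1.44 for Mvd. The 11 enzymes of squalene and the sterol ring had a median of 1.02.

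The regulators did not follow as one. Srebf1 was higher in astrocytes than in total homogenate by 2.31 on the log2 scale (SE 0.11, adjusted p = 4.26e-17, edgeR) and Insig1 3.49-fold (SE 0.14 on the log2 scale, adjusted p = 6.97e-13). Insig2, the second INSIG gene, was lower by −0.51 (SE 0.08, adjusted p = 1.33e-06, edgeR). Srebf2 (log2 difference 0.09, adjusted p = 0.347, edgeR) and Scap (0.06, adjusted p = 0.462) were not called. Acat2, a cytosolic thiolase, and Stard4, a sterol carrier, were higher by 0.59 and 0.40, and Stard4 was no longer called with RLE scaling (0.33, adjusted p = 0.0837, edgeR).

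Among the fatty acid genes, 9 of 11 were called higher in astrocytes than in total homogenate and none lower (median log2 difference 1.12). Of all genes, 41% were called higher and 37.8% lower. The elongase Elovl5 differed most, by 2.31 (SE 0.12, adjusted p = 2.87e-16, edgeR), followed by Acacb, the acetyl-CoA carboxylase of the mitochondrial surface whose product limits fatty acid oxidation, with 1.62, by Acsbg1, an acyl-CoA synthetase for long and very long chains, with 1.57, and by the stearoyl-CoA desaturase Scd2 with 1.57. The desaturases Scd1 (0.10, adjusted p = 0.558, edgeR) and Fads1 (−0.10, adjusted p = 0.391) were not called. Scd1 and Scd2 are close copies of each other, and reads that mapped to both were left out by the counting, so that their levels are uncertain.

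In control microglia 22 of the 24 sterol genes were called lower than in total homogenate and 1 higher (median log2 difference −1.38), where 84.4% of all genes were called (39.8% higher, 44.6% lower) and the median of all genes was −0.09. Srebf1 was the sterol gene not called (−0.03, adjusted p = 0.818, edgeR). Sqle, the oxygen-using enzyme that commits squalene to sterols, was furthest below, by −3.03 (SE 0.16, adjusted p = 1.74e-16, edgeR). Ebp, the sterol isomerase, was the one gene called higher in microglia, by 1.21 (SE 0.15, adjusted p = 1.74e-08, edgeR). With RLE scaling the median of all genes moved from −0.09 to −0.20 and that of the sterol genes to −1.49, with 1 sterol gene higher and 22 lower as before.

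Of the fatty acid genes, 8 of 11 were called lower in microglia than in total homogenate, beside 44.6% of all genes called lower and 39.8% higher. The lowest were Acsbg1 (−4.53, SE 0.31, adjusted p = 4.17e-14, edgeR), Fads2, the delta-6 desaturase (−4.29, SE 0.17, adjusted p = 2.32e-19), and Scd1 (−3.24, SE 0.18, adjusted p = 7.21e-16). Acly, which makes cytosolic acetyl-CoA from citrate, was higher by 0.80 (SE 0.08, adjusted p = 3.30e-10, edgeR). Acacb (−0.06, adjusted p = 0.76, edgeR) and Elovl5 (−0.24, adjusted p = 0.08) were not called. Elovl5 was called lower with RLE scaling (−0.34, adjusted p = 0.0185, edgeR), without the filter (0.0152), with DESeq2 (−0.35, adjusted p = 0.00973), without control mouse 22, 35 or 37, and with mouse as a block, which pairs the libraries of one animal (−0.26, adjusted p = 0.044, edgeR). Compared directly, astrocytes were higher than microglia in 22 of 24 sterol genes and 10 of 11 fatty acid genes (all genes: 71.9% called, 36.6% higher), and Ebp (−0.20, adjusted p = 0.234), Insig2 (0.13, adjusted p = 0.423) and Acly (−0.16, adjusted p = 0.0826) were the genes not called.

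**Figure D1:**
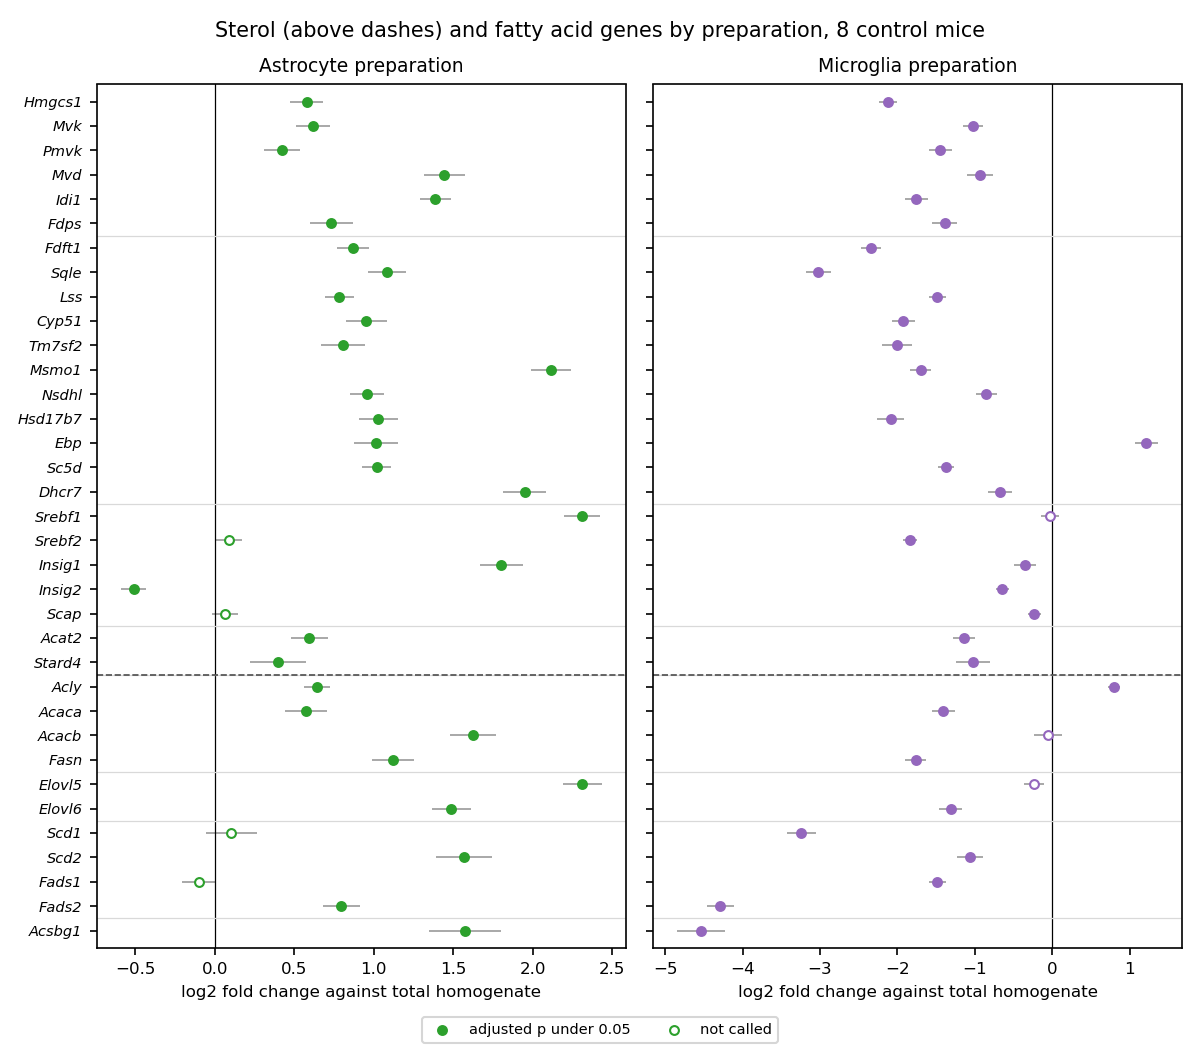
Log2 fold change of each of the 35 genes in control astrocytes (left) and control microglia (right) against total homogenate of the same 8 mice, with bars of 1 standard error; the horizontal axes differ in range, and filled points were called. On the left nearly all points lie to the right of 0, with Insig2 at −0.51; on the right most lie to the left of 0, with Ebp at 1.21 and Acly at 0.80.

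Set on a scale per length (CPM per kb of exon), the levels of the genes in one preparation can be compared with each other. In control astrocytes Scd2 stood first at a median of 1034 CPM per kb, followed by Acsbg1 at 148 CPM per kb and Elovl5 at 102 CPM per kb. Acacb stood last at 3.33 CPM per kb and Stard4 next to last at 3.84 CPM per kb. Control microglia also had Scd2 first, at 139 CPM per kb, but Acly followed at 54.9 CPM per kb and Fads1, the delta-5 desaturase, at 25.9 CPM per kb. No RNA of other cell types was taken out of these values. In control total homogenate Scd2 was first at 362 CPM per kb and Acacb last at 1.19 CPM per kb.

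Few of the 35 genes were called with CIE, and Ebp was the only sterol enzyme among them. A gene that was not called may still have changed. On simulated counts a log2 change of 0.5 was recovered in 41.3% of genes in astrocytes. The share was 14.3% in microglia and 42.4% in total homogenate. In astrocytes 4 of 35 genes were called, all higher (11.4%), where 5.13% of all 12878 genes tested were called (2.91% higher, 2.22% lower). Insig1 and Ebp belong to the sterol group, and the others are the fatty acid genes Acacb and Scd1. The remaining 31 lay between −0.32 (Acsbg1) and 0.25 (Scd2) on the log2 scale, and 19 of the 35 log2 fold changes were below 0. The median was 0.01 for the sterol genes and −0.04 for the fatty acid genes, beside 0.00 for all genes.

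Insig1, which encodes one of the proteins that hold SCAP back, was at 240 to 443 CPM (median 319) in control astrocytes and at 369 to 672 CPM (median 549) in CIE astrocytes. The groups overlapped, with each of the 9 CIE libraries above the control median. Its log2 fold change was 0.74 (SE 0.13, adjusted p = 0.00531, edgeR), or 1.67-fold. It was 0.23, 1.09 and 0.68 within the 3 ranges of mouse numbers, in their order.

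In total homogenate Insig1 was at 67.8 to 109 CPM (median 88.8) in control mice and at 113 to 156 CPM (median 136) in CIE mice. Here the groups did not overlap, which held for 0.093% of all genes tested in total homogenate and for no other of the 35 genes in any preparation. The log2 fold change was 0.63 (SE 0.10, adjusted p = 0.0104, edgeR), with 0.28, 0.85 and 0.66 within the ranges. Insig1 was the 1 member called of 35 in total homogenate, where 0.25% of all 13982 genes tested were called (0.193% higher, 0.0572% lower). In microglia it was at 43.3 to 77.8 CPM (median 55.4) in control mice and at 45.7 to 97.1 CPM (median 62.7) in CIE mice, with a log2 fold change of 0.17 (SE 0.16, adjusted p = 0.682, edgeR) and −0.39 within the range 35 to 41. The response in microglia differed from that in astrocytes by −0.59 and from that in total homogenate by −0.48, and neither difference passed its test (adjusted p = 0.213 and 0.32, edgeR interaction).

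Acacb was at 25.8 to 50.4 CPM (median 35.6) in control astrocytes and at 38.1 to 116 CPM (median 56.0) in CIE astrocytes, with all 9 CIE libraries above the control median and the groups overlapping. Its log2 fold change was 0.80 (SE 0.19, adjusted p = 0.0226, edgeR), or 1.74-fold, and 0.47, 1.23 and 0.30 within the ranges. In total homogenate the log2 fold change was of the same size, 0.79 (SE 0.20), from 7.70 to 16.6 CPM (median 11.2) in control mice and 11.9 to 35.2 CPM (median 18) in CIE mice, but the adjusted p was 0.13 (edgeR) and 0.0174 with DESeq2. Acacb is one of 2 acetyl-CoA carboxylases, and the other, Acaca, which supplies the cytosolic chain synthesis, was not called in any preparation (astrocyte log2 fold change 0.05, microglia 0.40, total homogenate 0.03).

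Scd1, which places the first double bond into saturated chains, was at 294 to 570 CPM (median 406) in control astrocytes and at 454 to 765 CPM (median 624) in CIE astrocytes. The groups overlapped, with 9 of 9 CIE libraries above the control median. The log2 fold change was 0.53 (SE 0.13, adjusted p = 0.026, edgeR) and 0.50, 0.65 and 0.46 within the ranges. It was no longer called without control mouse 36 (adjusted p = 0.053). In total homogenate it was 0.46 (SE 0.14, adjusted p = 0.23, edgeR). Scd2 gave 0.25 in astrocytes (adjusted p = 0.149, edgeR; 0.0302 with DESeq2).

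Ebp was at 19.2 to 32.8 CPM (median 27.9) in control astrocytes and at 30.6 to 39.1 CPM (median 33.4) in CIE astrocytes. Every CIE library lay above the control median and the groups overlapped. The log2 fold change was 0.33 (SE 0.10, adjusted p = 0.0478, edgeR), and it was called in only 4 of the 17 fits that left out 1 mouse each, those without mouse 3, 8, 35 or 37 (adjusted p up to 0.105 in the others). No fold change of the other 16 sterol enzymes was called in astrocytes: Hmgcs1, at the entry of the pathway, had −0.20 (adjusted p = 0.266, edgeR), Sqle −0.06 and Msmo1 −0.01.

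Oligodendrocyte markers lay mostly on the same side in astrocyte libraries. Of the 12 markers 9 had a log2 fold change above 0 and 1 was called, Mobp (1.03, adjusted p = 0.0127, edgeR), with a list median of 0.15. Their summed level was 17890 to 25336 CPM in control and 18675 to 26661 CPM (median 22859) in CIE astrocytes. Of the 10 astrocyte markers 8 lay below 0 (median −0.14) and 1 was called higher, Gjb6 (0.66, adjusted p = 0.00891, edgeR). Of 6 markers of border macrophages 5 lay above 0 (median 0.54) and 1 was called higher, Cd163 (1.37, adjusted p = 0.0103, edgeR). The part of any of these marker lists in the members' values was not tested. With the mean log2 level of the oligodendrocyte markers as a covariate, 257 of all genes were called in astrocytes in place of 661. In total homogenate 10 were called in place of 35. In these fits Insig1 was called in astrocytes (0.62, adjusted p = 0.0135, edgeR) and in total homogenate (0.50, adjusted p = 0.0494). Acacb (0.72, adjusted p = 0.0887), Scd1 (0.41, adjusted p = 0.0798) and Ebp (0.24, adjusted p = 0.191) were not called in astrocytes. That covariate was chosen after the data had been seen. With CIE, 9 of the 12 markers lay above 0 in astrocytes and all 12 in total homogenate. These fits cannot assign what the treatment and the marker level share to either of them.

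**Figure D2:**
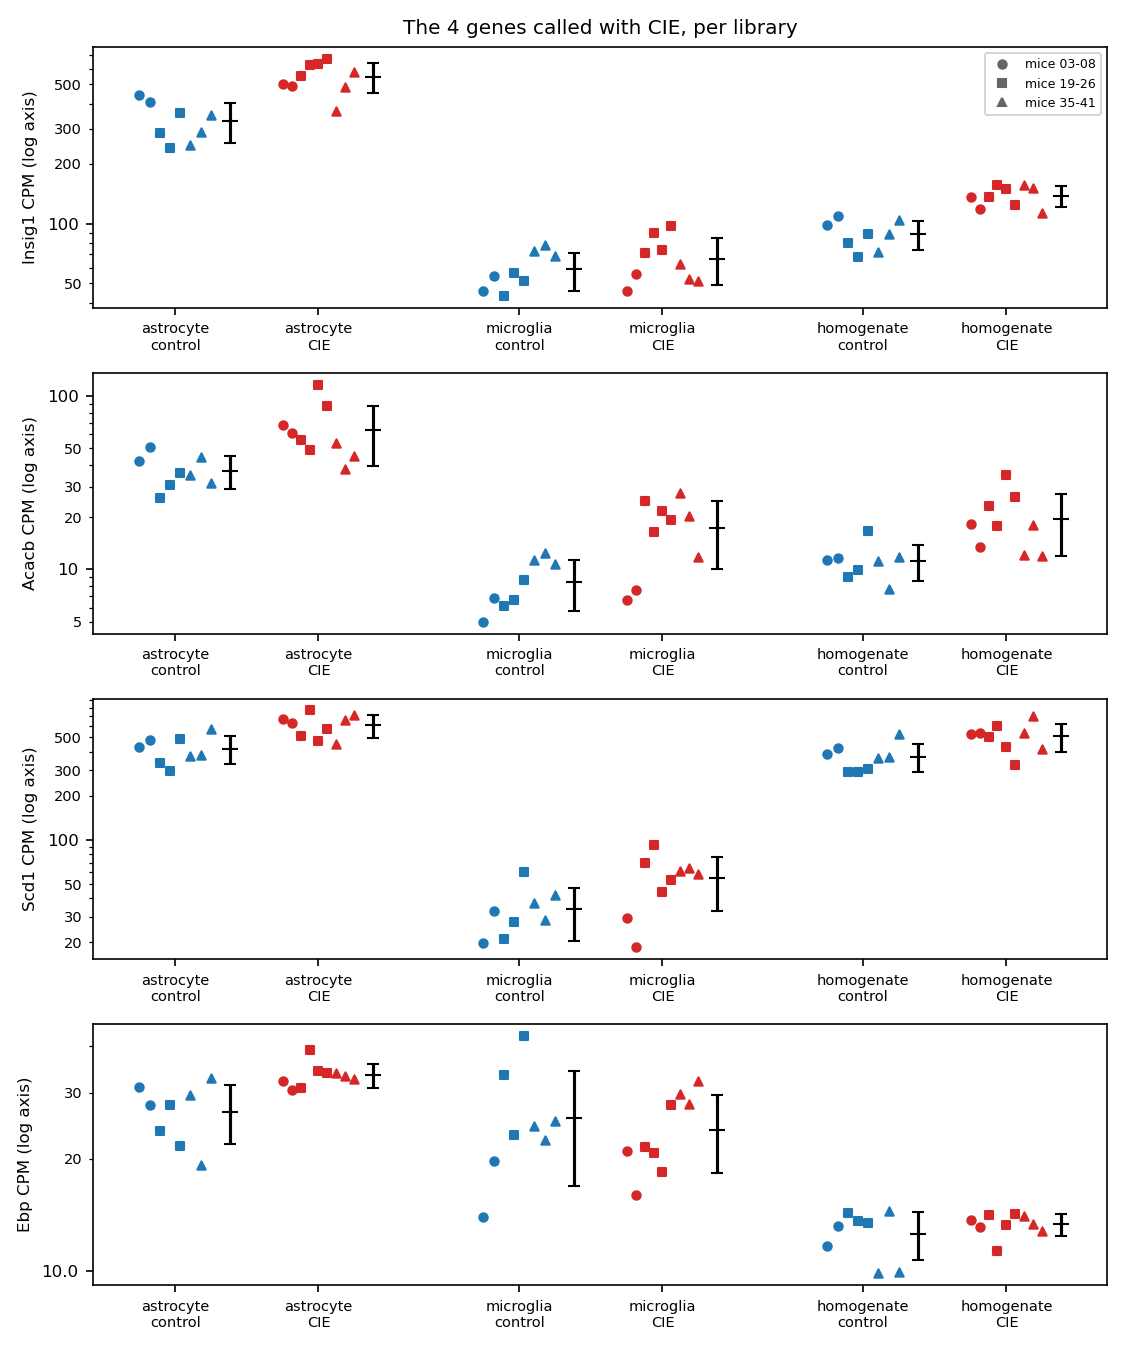
CPM on a log axis in each library for the 4 genes called with CIE, by preparation and treatment, blue for control and red for CIE, with the marker shape giving the range of mouse numbers and the bar the mean ± 1 SD of 8 control or 9 CIE mice. Insig1 in total homogenate is the panel part where no CIE library (113 to 156 CPM) reaches down to the control libraries (67.8 to 109 CPM).

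In microglia 1 of 34 genes tested was called, Acacb, where 3.47% of all 10761 genes tested were called (2.31% higher, 1.15% lower). Idi1, an isoprenoid isomerase, did not pass the filter on low counts, with 73 counts in all control and 77 in all CIE microglia libraries. Acacb was at 4.99 to 12.5 CPM (median 7.75) in control microglia and at 6.66 to 27.6 CPM (median 19.3) in CIE microglia, from 5 to 98 counts per library. The groups overlapped, with 7 of 9 CIE libraries above the control median. Its log2 fold change was 0.95 (SE 0.25, adjusted p = 0.0405, edgeR), and the call was kept in 5 of the 17 fits that left out 1 mouse, those without mouse 6, 8, 22, 36 or 41 (adjusted p up to 0.0915 in the others).

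Most of the other members lay above 0 in microglia without passing the test. Of the 34, 29 had a log2 fold change above 0, 9 had an unadjusted p under 0.05 (26.5%, where 16.9% of all genes tested did), and the median was 0.23 for the sterol genes and 0.46 for the fatty acid genes, beside −0.01 for all genes. The fatty acid synthase gene Fasn had the smallest adjusted p among them: 76.5 to 204 CPM (median 129) in control and 141 to 222 CPM (median 175) in CIE microglia, with a log2 fold change of 0.46 (SE 0.14, adjusted p = 0.0837, edgeR). Srebf2 (0.33, adjusted p = 0.104), Srebf1 (0.38, adjusted p = 0.108) and Scd1 (0.71, adjusted p = 0.118) followed. With mouse-number range added to the fit, Srebf1 (adjusted p = 0.0307, edgeR) and Srebf2 (0.0414) were called, among 775 of all genes in place of 373. Mvd, the mevalonate diphosphate decarboxylase, had the lowest value, −0.38 (adjusted p = 0.314). Leaving out single mice also changed the calls, of members and of all genes. Without control mouse 22, 5 of the 11 fatty acid genes were called (Acaca, Acacb, Fasn, Scd1 and Scd2), where 4.56% of all genes tested were called in that fit. Without CIE mouse 6, 2 sterol genes were called (Pmvk, a mevalonate pathway kinase, and Srebf2), where 5.05% of all genes were called.

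All 12 oligodendrocyte markers also lay above 0 in CIE microglia, with a median log2 fold change of 0.68 and 1 called, Mobp (1.70, adjusted p = 0.0053, edgeR), and none of the 12 was at 0 in a group. Within this preparation their summed level was 2199 to 7376 CPM in control and 2395 to 9644 CPM in CIE libraries. Scd2 ran beside it: the control library with the most marker RNA, that of mouse 22 at 7376 CPM, also had the most Scd2 (1652 CPM), and the CIE library of mouse 24 had the most of both (9644 CPM and 1921 CPM). The libraries of CIE mice 6 and 8, with 2963 and 2395 CPM of markers, held 580 and 517 CPM of Scd2. Mouse 22 also had the highest summed level among control microglia for astrocyte, microglia, oligodendrocyte precursor and neuron markers. With the oligodendrocyte marker level as a covariate, chosen after the data had been seen, 119 of all genes were called in place of 373. In that fit the median fold change of the sterol genes was 0.01 and that of the fatty acid genes 0.08 on the log2 scale. That of Acacb was 0.40 (adjusted p = 0.516, edgeR). As all 12 markers lay above 0 with CIE, the treatment and the marker level went together in part. This fit cannot assign what they share to either of them. All 10 microglia markers lay below 0 in CIE microglia (median −0.23, none called, 4 at an unadjusted p under 0.05). Scaled over all 51 libraries, their summed level was 28297 to 39739 CPM (median 28849) in control and 21561 to 28079 CPM (median 24026) in CIE libraries. Of 9 neutrophil markers tested, 8 were called higher in CIE microglia. On the same scale the summed level of the 10 listed was 598 to 1196 CPM (median 972) in control libraries. In CIE libraries it was 793 to 7306 CPM (median 1059), with the highest value in mouse 41. The part of the oligodendrocyte, microglia and neutrophil markers in the values of the 34 genes was not tested.

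**Figure D3:**
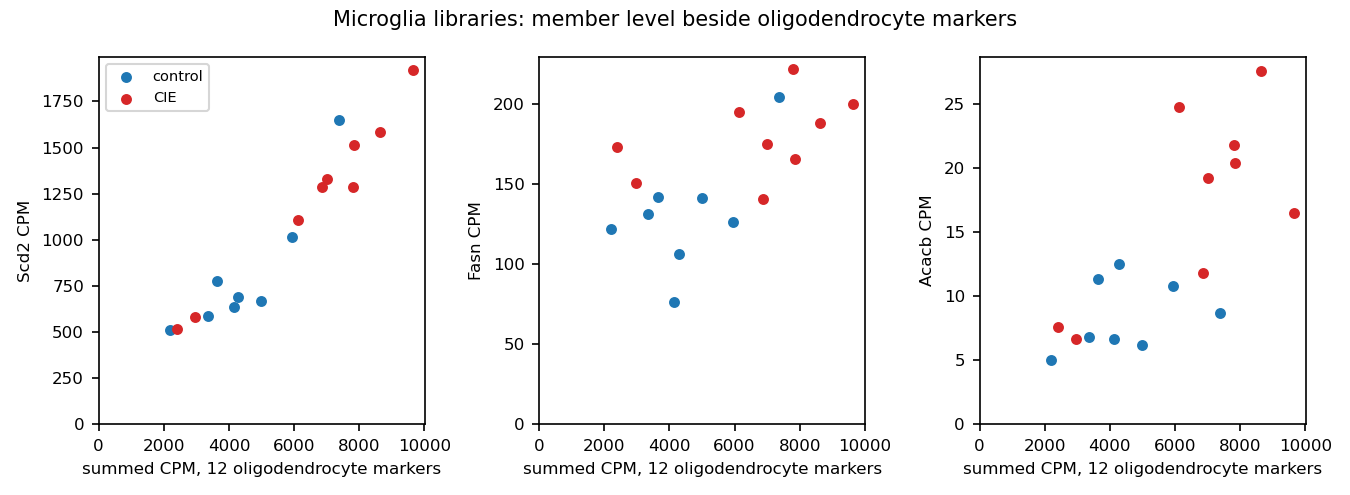
Each point is a microglia library (8 control in blue, 9 CIE in red), with the summed CPM of 12 oligodendrocyte markers on the horizontal axis and the CPM of Scd2, Fasn or Acacb on the vertical axis. Scd2 climbs with the markers from 511 to 1921 CPM across both treatments, while Fasn and Acacb are more scattered.

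In total homogenate the sterol genes had a median log2 fold change of 0.05 and the fatty acid genes of 0.01, beside 0.01 for all genes. After Acacb, Insig1 and Scd1 the largest values were those of Fads1 (−0.29, adjusted p = 0.323, edgeR) and Tm7sf2, a sterol reductase (0.28, adjusted p = 0.665). The 12 oligodendrocyte markers had a median of 0.49, all above 0 and none called. No member passed the test of a difference in its response to CIE between preparations. The smallest adjusted p values among these tests were 0.108 for Srebf2 (microglia minus total homogenate, 0.46) and 0.116 for Sqle (0.76), where 0.828% of all 14379 genes were called. Srebf2 and Sqle were both called with DESeq2 (0.0352 and 0.0334). For astrocytes minus total homogenate 0.00695% of all genes were called, and for microglia minus astrocytes 0.529%.

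**Figure D4:**
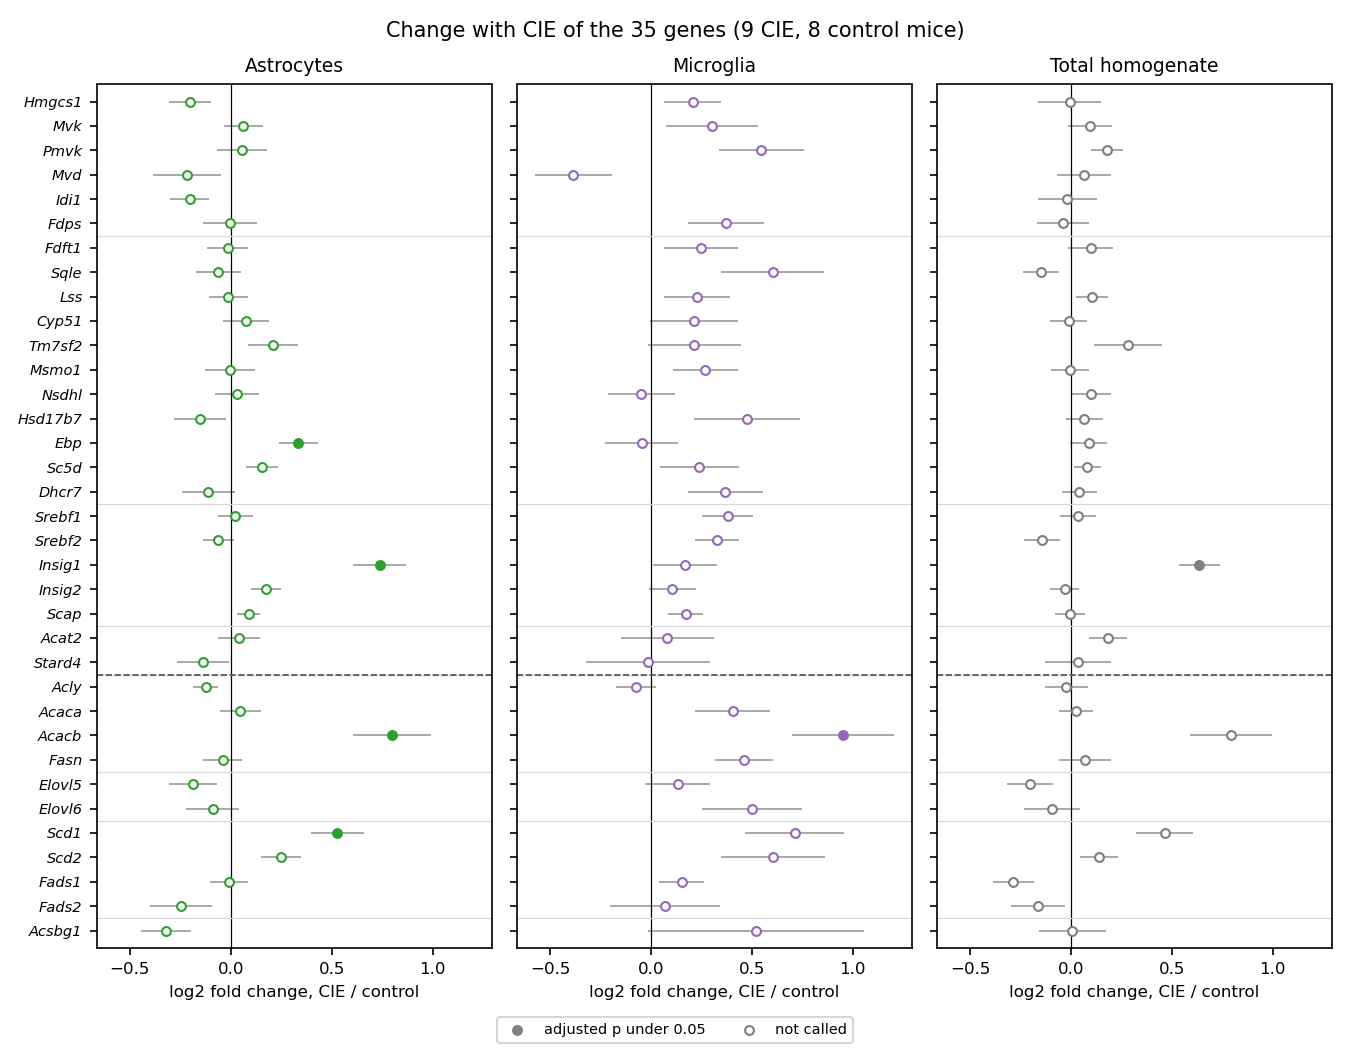
Log2 fold change of the 35 genes, CIE over control, in astrocytes, microglia and total homogenate on a common axis, with bars of 1 standard error (9 CIE and 8 control mice); filled points were called, and Idi1 has no point in microglia because it was not tested. Insig1, Acacb and Scd1 stand away from 0 in astrocytes and total homogenate while the sterol enzymes lie around it, and most points of microglia lie to the right of 0 with wider bars.

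The members also varied together from mouse to mouse. After the mean of each treatment was taken out, the median Pearson correlation over pairs of the 17 sterol enzymes across the 17 astrocyte libraries was 0.66, beside 0.00 over all pairs of tested genes; it was 0.38 over 16 enzymes in microglia and 0.40 over 17 in total homogenate. For the 11 fatty acid genes it was 0.54, 0.36 and 0.69 in the same order. These libraries share depth, dissection and cell makeup, and the values are a description. Fdft1, which makes squalene, and Msmo1 had the highest median correlation with the other sterol enzymes in astrocytes (0.78 each). Among the genes called with CIE in astrocytes, Scd1 had 0.61, Insig1 0.46, Ebp 0.26 and Acacb −0.10. In total homogenate Scap had −0.41 and Tm7sf2 −0.30, against 0.65 for Mvd.

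**Figure D5:**
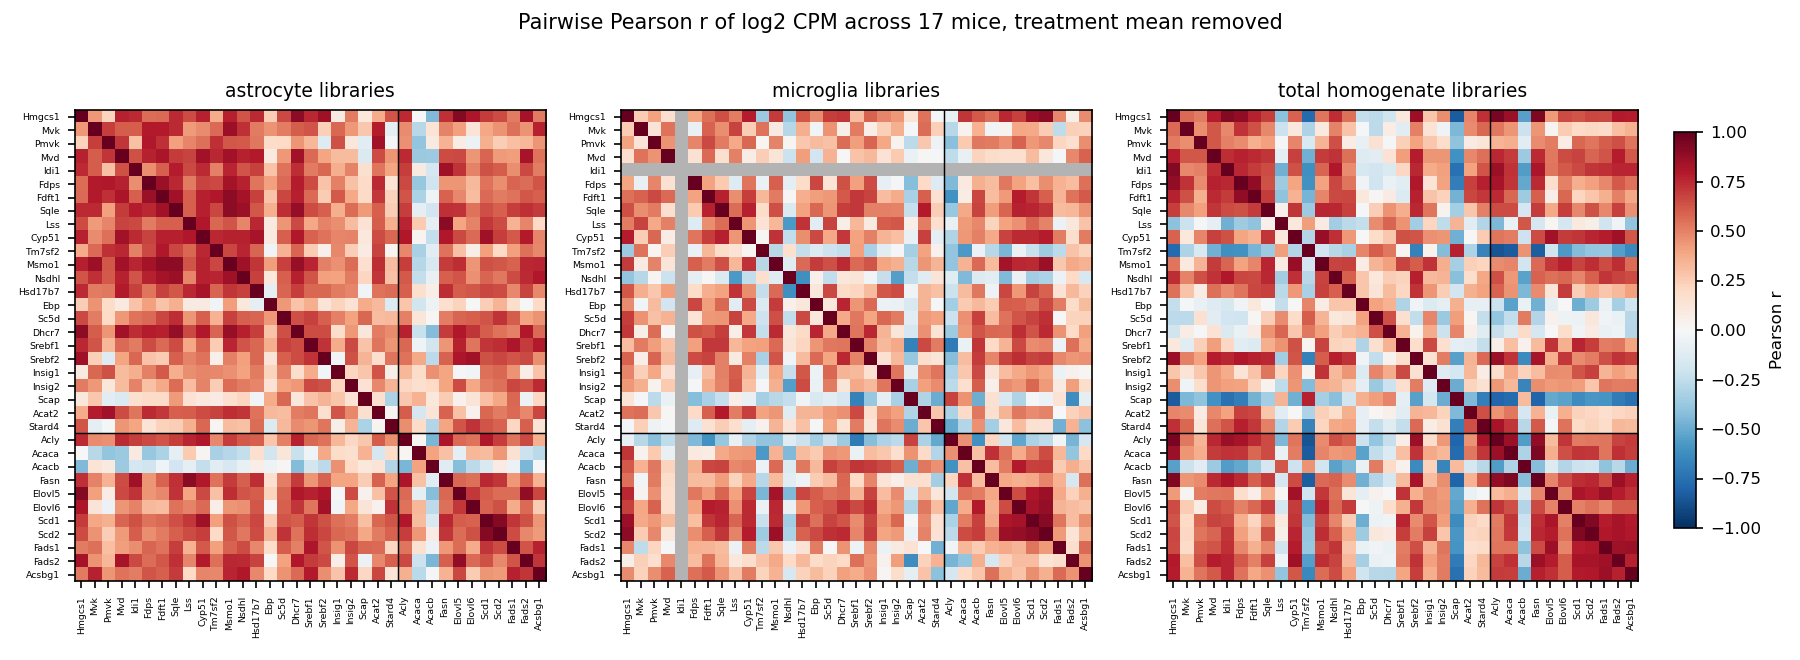
Pearson correlation between each pair of the 35 genes over 17 mice in each preparation, after the treatment mean was removed, with sterol genes above and left of the black lines; grey marks Idi1, not tested in microglia. Most sterol enzymes are red with each other in astrocytes (median 0.66), with paler stripes for Scap, Ebp and Stard4 in the sterol block and pale or blue ones for Acaca and Acacb among the fatty acid genes, and the fatty acid block is the reddest in total homogenate (median 0.69).

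Other genes of the pathways were read from lists of 17 sterol and 27 fatty acid genes that are not members. In astrocytes 1 of 17 (5.88%) and 2 of 27 (7.41%) were called, near the 5.13% of all genes, all higher: Erlin2, a membrane protein of the machinery that degrades INSIG-bound HMG-CoA reductase (0.62, SE 0.12, adjusted p = 0.00986, edgeR), Acsl1, which activates long chains to acyl-CoA (0.34, SE 0.08, adjusted p = 0.0207), and Mcat, of mitochondrial fatty acid synthesis (0.30, SE 0.09, adjusted p = 0.0482). Mcat was called in 4 of the 17 fits that left out 1 mouse, those without mouse 3, 8, 37 or 41 (adjusted p up to 0.105 in the others). Erlin2 was at 74.4 to 124 CPM (median 92.6) in control and 120 to 196 CPM (median 130) in CIE astrocytes, where the groups overlapped. In microglia 1 of 17 was called (5.88%, where 3.47% of all genes were called) and none of the 23 tested of 27: Mylip, the ligase that marks the LDL receptor for degradation, fell by 0.62 on the log2 scale (SE 0.12, adjusted p = 0.00745, edgeR). It was at 302 to 549 CPM (median 396) in control and 222 to 291 CPM (median 267) in CIE microglia, with no overlap, which held for 0.465% of all genes tested in microglia. In total homogenate none of the 17 and none of the 27 was called by edgeR, with 1 and 3 at an unadjusted p under 0.05 (9.2% of all genes tested).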

How the data were processed

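The deposited values are raw HTSeq counts per gene symbol, made by the authors with HTSeq 0.6.1p1 after alignment by STAR 2.5.0a to mm10, adapter trimming by Cutadapt 1.8 and removal of duplicates by Picard 1.141. Strand setting and annotation release are not given in the sources used here. In GENCODE M21, exons of Tm7sf2 overlap those of Vps51 on the same strand, and exons of Fdps those of Gm43738. Exons of Fdft1, Cyp51 and Srebf1, among others, overlap exons of a gene on the other strand. Whether such genes lost or gained reads through their neighbours was not tested. Reads that mapped to more than 1 place were left out, and the summary lines of the counter stayed out of library sizes.

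Each preparation was fitted alone for CIE against control with edgeR 4.0.16 (R 4.3.3, TMM, filterByExpr, quasi-likelihood test, two-sided, Benjamini-Hochberg), with standard errors as the fold change over the square root of F. Levels used 1 fit of the 24 control libraries, and differences of response 1 fit of all 51. Alternatives were RLE scaling, no filter, DESeq2 1.42.0, mouse-number range as a covariate, mouse as a block, and leaving out each mouse. Exon lengths come from GENCODE M21. Plots used matplotlib 3.10.9. All 35 genes are named by role, and other pathway genes where called. The members and lists were chosen with earlier results of these data known.

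The libraries of one mouse are paired by the mouse number in the labels. Their deviations from the group means correlated weakly (median r 0.16 for astrocytes with microglia, 0.12 for astrocytes with total homogenate, 0.04 for microglia with total homogenate, 17 mice each). No 2 libraries of the same preparation and treatment agreed within sampling noise. On simulated counts a log2 change of 0.5 was recovered in 41.3% of genes in astrocytes (12830 genes tested), 14.3% in microglia (10657) and 42.4% in total homogenate (13887), and a change of 1 in 89.6%, 84.6% and 83.6%.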

Additional observations from a re-analysis of the deposited data

Results flagged for a closer look

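Dixon's test on log2 of CPM plus 0.5 was run in 208 groups of libraries, each 1 gene in 1 preparation and treatment. A library far from the rest was found in 18 of them (8.65%), where chance gives about 1 in 20. Values below are in CPM. In CIE microglia mouse 8 was low for Mvk (2.52 CPM, nearest other 9.32), Sqle (3.36 CPM) and Acat2 (4.2 CPM), and mouse 6 was low for Pmvk (4.76 CPM). Mouse 23, the shallowest library at 571878 counts, was high for Mvd (14.9 CPM) and Acsbg1 (54.6 CPM, nearest other 14.1). It also had the highest summed astrocyte (1434 CPM) and neuron (1293 CPM) marker levels of that group. In control microglia mouse 22 was high for Hmgcs1 (84.1 CPM) and Acaca (75.4 CPM) and low for Stard4 (0.967 CPM). Mouse 3 was high for Mvd (17 CPM), and mouse 35 was high for Fads2 (9.96 CPM). Mouse 22 had the fewest counts of that group (1025527). Its summed marker level was the highest there for oligodendrocytes, their precursors, astrocytes, microglia and neurons.

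In astrocytes CIE mouse 8 was high for Mvk (44.7 CPM), and CIE mouse 24 was high for Ebp (39.1 CPM, nearest other 34.4), a gene called higher with CIE there. The same mouse was low for Ebp in total homogenate (11.3 CPM). Also in total homogenate, CIE mouse 26 was low for Cyp51 (69.2 CPM) and Msmo1 (57.2 CPM), control mouse 22 was high for Fdps (56.7 CPM), and control mouse 36 was low for Lss (50.3 CPM). Insig1, Acacb and Scd1 had no such library in any group.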

How the results depend on the processing

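No fold change of a member that was called reversed under any alternative run. Insig1 stayed called in astrocytes and in total homogenate under RLE scaling, no filter, DESeq2, the range covariate, the oligodendrocyte marker covariate (added after seeing the data) and without each of the 17 mice (0.68 to 0.80 and 0.59 to 0.69 on the log2 scale). Counts of calls moved by over 1.5 times as follows, save those with mouse as a block, and the cause was not tested. With DESeq2, 1158 genes were called in astrocytes in place of 661, 757 in microglia in place of 373 (1 sterol and 2 fatty acid members) and 204 in total homogenate in place of 35 (1 fatty acid member); differences of response went from 1 to 5 (astrocytes minus total homogenate), 119 to 255 (microglia minus total homogenate, with 2 sterol members) and 76 to 183 (microglia minus astrocytes). The range covariate gave 1129, 775 and 81 calls by preparation, with 2 sterol members in microglia (Srebf1, adjusted p = 0.0307, and Srebf2, 0.0414, edgeR). The oligodendrocyte marker covariate gave 257, 119 and 10, with 1 sterol and 0 fatty acid members in astrocytes and 0 fatty acid members in microglia. Without the filter 1 sterol member was called in astrocytes (Ebp lost, adjusted p = 0.0557, edgeR) and 44 genes differed between microglia and astrocytes. RLE scaling left 0 calls of a difference between astrocytes and total homogenate, with 718 genes at an unadjusted p under 0.05. Leaving out each mouse gave 354 (without mouse 26) to 1001 (without 8) calls in astrocytes, with 1 to 2 sterol and 1 (without 36) to 3 (without 8) fatty acid members; 182 (without 20) to 684 (without 8) in microglia, with 0 to 2 sterol and 0 to 5 (without 22) fatty acid members; and 15 (without 20) to 71 (without 41) in total homogenate. Differences of response ranged over 0 to 2, 49 (without 20) to 188 (without 8) with 0 to 1 sterol members, and 23 (without 36) to 124 (without 6). With mouse as a replicate block, 10687, 11445 and 9748 genes differed in level (astrocytes against total homogenate, microglia against total homogenate, astrocytes against microglia) and 1, 113 and 85 in response; besides Elovl5 it changed no call of a member. In microglia, counts as low as 1 per library (Stard4, control mouse 22) and few recovered changes of 0.5 limit what could be called.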
